A study of Homo sapiens with 33 samples.

Results

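Transcript levels of the 10 neighbouring kallikrein genes KLK5 to KLK14 were followed through 11 high-grade serous ovarian carcinoma cell lines that differ in their response to platinum drugs. The genes were taken by symbol, all 10 of 10 were present among the 29744 genes measured, and the set was chosen because KLK5 is far higher in the line OVCAR4 ResA than in OVCAR4. That contrast is therefore described below without a test. RNA-seq was run on 3 libraries of each line, 33 in all. OVCAR3, OVCAR4, PEA1 and PEO1 are taken as platinum-sensitive and the remaining lines as resistant, as the text of the study, not the labels, gives it. That leaves 7 resistant-sensitive pairs. The lines OVCAR3 ResA, OVCAR3 ResB, OVCAR4 ResA and OVCAR4 ResB were derived in culture from OVCAR3 and OVCAR4 by repeated short pulses of cisplatin at rising dose with recovery between them. PEA2 comes from the same patient as PEA1, and PEO4 and PEO6 come from the same patient as PEO1, so these lines carry what else changed in the patient between samplings. Every resistant line is one derivation, and the derived lines were not kept in drug.

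Tissue kallikreins are secreted serine proteases whose genes lie side by side on chromosome 19. They are made as inactive precursors, are switched on by cleavage, often by another kallikrein, and are held in check by Kazal-type and serpin inhibitors. In skin they release dead cells from the surface by cutting the proteins of cell contacts. Several of them are abundant in serous ovarian carcinoma and are released into ascites and serum, which is why they have been studied as markers of this tumour.

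In RefSeq's GRCh38.p14 annotation the 10 genes occupy 140.9 kb of chromosome 19, from 50943303 to 51084210. The minus strand is given for the 9 members that have an entry in the promoter table. KLK5, at chr19:50943303-50953038, lies at the low-coordinate end. It is followed along the coordinates by KLK6 (chr19:50958631-50969591), KLK7 (chr19:50976468-50984064) and KLK8 (chr19:50996008-51001604). KLK9 (chr19:51002508-51009592), KLK10 (chr19:51012739-51020097) and KLK11 (chr19:51022236-51027991) come next. KLK12 (chr19:51029094-51035002), KLK13 (chr19:51055626-51065679) and KLK14 (chr19:51077494-51084210) close the cluster. A long non-coding RNA, LOC105372442 (chr19:50950123-50974726), overlaps KLK5 and KLK6 and was not among the genes measured. Whether the counting used strand is not stated, so reads of this RNA cannot be told apart from those of the overlapped parts of both genes.

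The 250 bases before the transcription start are shown for the abundant members that RefSeq's promoter table lists, because these are the genes whose levels moved most between lines. Each is read 5′ to 3′ on the minus strand of GRCh38.p14, and the capitals mark matches to the GC box GGGCGG on either strand. The windows are chr19:50953039-50953288 for KLK5, chr19:50969592-50969841 for KLK6, chr19:50984065-50984314 for the most upstream start of KLK7 and chr19:51019862-51020111 for the most upstream start of KLK10.
KLK5: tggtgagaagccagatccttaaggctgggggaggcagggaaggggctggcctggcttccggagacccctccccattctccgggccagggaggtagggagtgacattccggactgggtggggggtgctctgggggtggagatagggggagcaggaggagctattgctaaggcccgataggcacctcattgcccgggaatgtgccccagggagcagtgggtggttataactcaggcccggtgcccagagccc
KLK6: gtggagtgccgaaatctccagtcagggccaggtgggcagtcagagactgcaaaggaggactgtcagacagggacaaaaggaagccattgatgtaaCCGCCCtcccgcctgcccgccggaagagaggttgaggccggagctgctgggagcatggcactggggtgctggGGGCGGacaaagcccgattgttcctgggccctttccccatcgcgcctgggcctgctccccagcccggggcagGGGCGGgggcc
KLK7: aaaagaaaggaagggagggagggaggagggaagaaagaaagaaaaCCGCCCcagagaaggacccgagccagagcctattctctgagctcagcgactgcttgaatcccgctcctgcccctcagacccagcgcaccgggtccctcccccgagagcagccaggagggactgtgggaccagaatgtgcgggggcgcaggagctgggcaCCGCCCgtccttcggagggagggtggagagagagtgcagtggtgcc
KLK10: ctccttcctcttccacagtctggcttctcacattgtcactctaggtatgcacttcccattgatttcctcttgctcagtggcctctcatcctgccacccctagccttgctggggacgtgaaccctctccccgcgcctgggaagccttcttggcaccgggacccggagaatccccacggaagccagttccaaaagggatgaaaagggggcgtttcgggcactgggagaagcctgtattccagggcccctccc
The windows of KLK5 and KLK10 hold no GC box, and that of KLK6 holds 3 of them. Over the 16 start windows listed for 9 members, 10 windows from 6 genes hold the GC box. The share was 42.6% of 35116 promoter windows of the same length. Windows of nearby starts of KLK7, KLK13 and KLK14 overlap, so some GC boxes are counted in more than 1 window. None of the 16 holds TATAAA (10.7% of all windows), the AP-1 motif TGANTCA (6.57%) or the glucocorticoid receptor half-site AGAACA (12.4%). The half-site AGGTCA, found in 12.1% of all windows, occurs in 1 window, of KLK13. The absence of these letters says only that they are not in these windows.

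Sequencing gave 18059000 to 43394000 counts per library. Mitochondrial ribosomal RNA took 1.12 to 14.8% of the counts, and in the OVCAR4 family its share differed by library. It was 5.18%, 14.8% and 11.96% in OVCAR4, 9.23%, 2.02% and 2.09% in OVCAR4 ResA, and 13.1%, 2.47% and 2.39% in OVCAR4 ResB, for replicates 1 to 3. Levels are given in TPM, transcript counts that the authors scaled for gene length and library total. Fold changes come from DESeq2, which scales libraries by a median ratio. The median log2 TPM ratio over genes was 0.48 in OVCAR4 ResA against OVCAR4 and 0.53 in OVCAR4 ResB, where the DESeq2 medians of the same genes were −0.059 and −0.067, so directions in this family were checked on both scales. The epithelial and serous marker genes PAX8, EPCAM and KRT8 were present in all lines, with PAX8 means from 30.1 to 203 TPM. PEA1 stood apart, with 2.95 TPM of KRT7 and 14.0 TPM of EPCAM. WT1 averaged at least 60.3 TPM in OVCAR3 and the PEO lines but at most 4.40 TPM in the other 7 lines.

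KLK5, KLK6, KLK7, KLK8 and KLK10 carried most of the cluster's transcripts. Summed over the 10 genes, the level was 1511 ± 264 TPM (SD, n = 3) in PEO1, 1009 ± 163 TPM in PEO4 and 1417 ± 361 TPM in PEO6. The OVCAR3 family held 314 ± 10.3 TPM in OVCAR3, 575 ± 48.8 TPM in OVCAR3 ResA and 201 ± 44.2 TPM in OVCAR3 ResB. In the OVCAR4 family the sums were 51.2 ± 7.89, 230.4 ± 20.3 and 29.0 ± 8.57 TPM for OVCAR4, OVCAR4 ResA and OVCAR4 ResB. PEA2 reached 4.85 ± 0.36 TPM, and PEA1 only 0.17 ± 0.19 TPM. The leading member also changed from line to line, within families as well as between them. KLK5 made up 46.5% of the sum in OVCAR3 and 80.5% in OVCAR3 ResA. KLK10 made up 76.1% in OVCAR4 and 59.5% in OVCAR4 ResA. KLK6 led in OVCAR4 ResB, PEA2, PEO1 and PEO6, and KLK7 led in PEO4. The lead in PEO6 was narrow, with KLK6 at 27.8% and KLK5 at 27.3%.

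**Figure D1:**
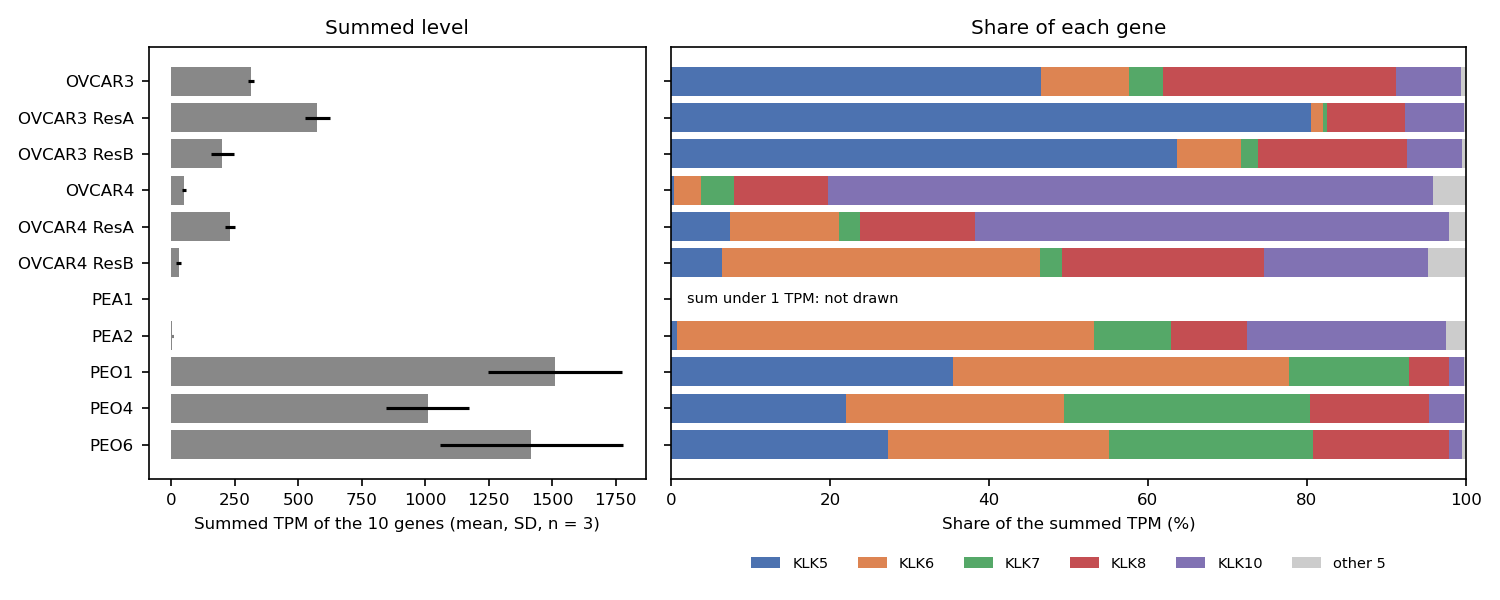
Left, summed TPM of the 10 kallikrein genes in each line (bars, mean; error bars, SD; n = 3 libraries). Right, the share of that sum taken by each of the 5 abundant genes and by the other 5 together, in percent. The PEO lines hold 1009 TPM or more while the PEA lines hold at most 4.85 TPM, and OVCAR4 ResB differs from the other OVCAR4 lines in that KLK6 leads in place of KLK10.

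The remaining members were rare. KLK9 reached at most 1.80 TPM, KLK13 at most 3.04 TPM, KLK14 at most 2.99 TPM and KLK11, also called hippostasin, at most 6.55 TPM. KLK12 had 0 counts in all 33 libraries, so it could not be assessed at this depth. More than 3 counts, the floor used here, were present in 11 libraries for KLK9, 18 for KLK13, 21 for KLK14 and 15 for KLK11, against 30 for KLK6, KLK7, KLK8 and KLK10 and 26 for KLK5.

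**Figure D2:**
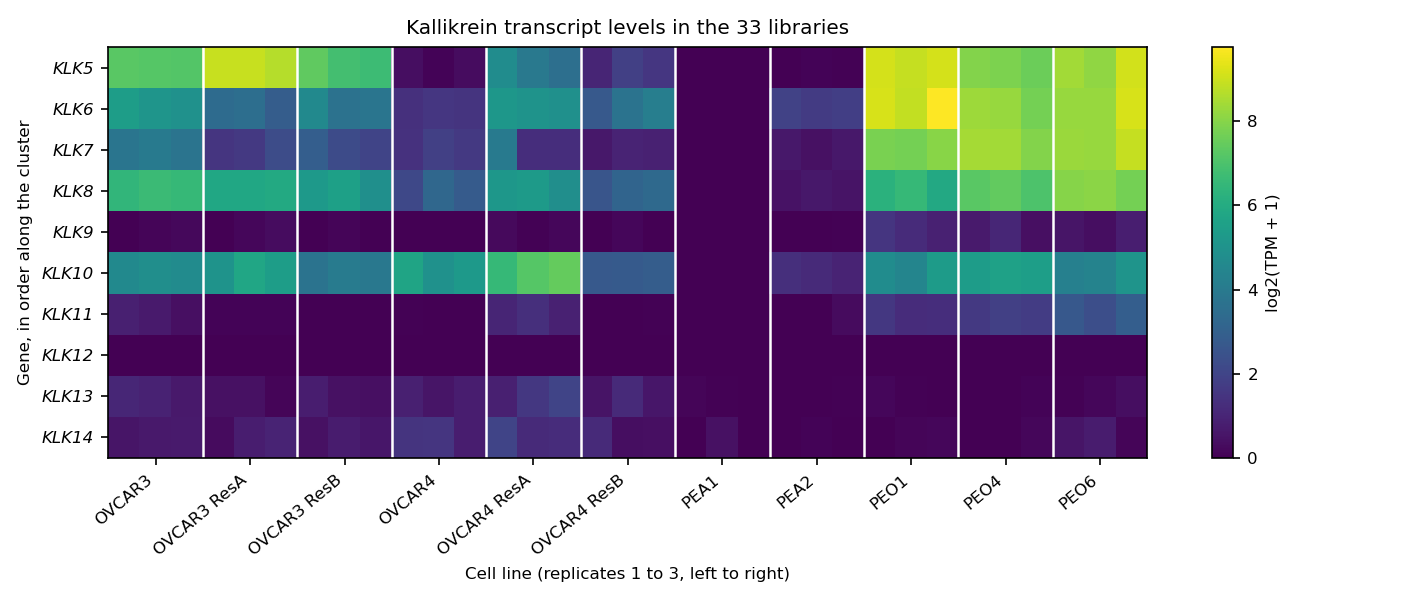
log2(TPM + 1) of the 10 genes, in their order along the cluster, in each of the 33 libraries (columns, grouped by line). KLK5, KLK6, KLK8 and KLK10 are bright in most lines and KLK7 mainly in the PEO lines. KLK12 is dark throughout, and PEA1 is dark for nearly every gene.

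KLK5 is a trypsin-like enzyme that activates other kallikreins. Its mean was highest in PEO1 (537 ± 46.9 TPM), OVCAR3 ResA (463 ± 49.5 TPM) and PEO6 (387 ± 136 TPM), where OVCAR3 ResA overlapped with both of the others. PEO4 followed, apart from PEO6, with 222 ± 32.1 TPM and OVCAR3 with 146 ± 5.67 TPM, the latter overlapping with OVCAR3 ResB at 128 ± 34.0 TPM. OVCAR4 ResA (17.1 ± 7.99 TPM), OVCAR4 ResB (1.85 ± 0.82 TPM) and OVCAR4 (0.19 ± 0.12 TPM) were separate from each other. Both PEA lines were at the floor, and PEA2 overlapped with OVCAR4.

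KLK10 ran in another order. It was highest in OVCAR4 ResA at 137 ± 40.9 TPM, apart from all other lines. PEO4, OVCAR3 ResA, OVCAR4, PEO1, OVCAR3 and PEO6 lay between 44.2 and 23.2 TPM, each overlapping with the next. OVCAR3 ResB (14.0 ± 1.81 TPM), OVCAR4 ResB (5.97 ± 0.40 TPM) and PEA2 (1.21 ± 0.26 TPM) were separate steps below. Over the 11 line means, which share preparation and a common scale, Pearson's r of log2(TPM + 1) was 0.94 for KLK6 with KLK7 and 0.92 for KLK5 with KLK8. Among the 36 couples of the 9 members that reached 1 TPM in some line, r ran from −0.41 to 0.94 with a median of 0.59.

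**Figure D3:**
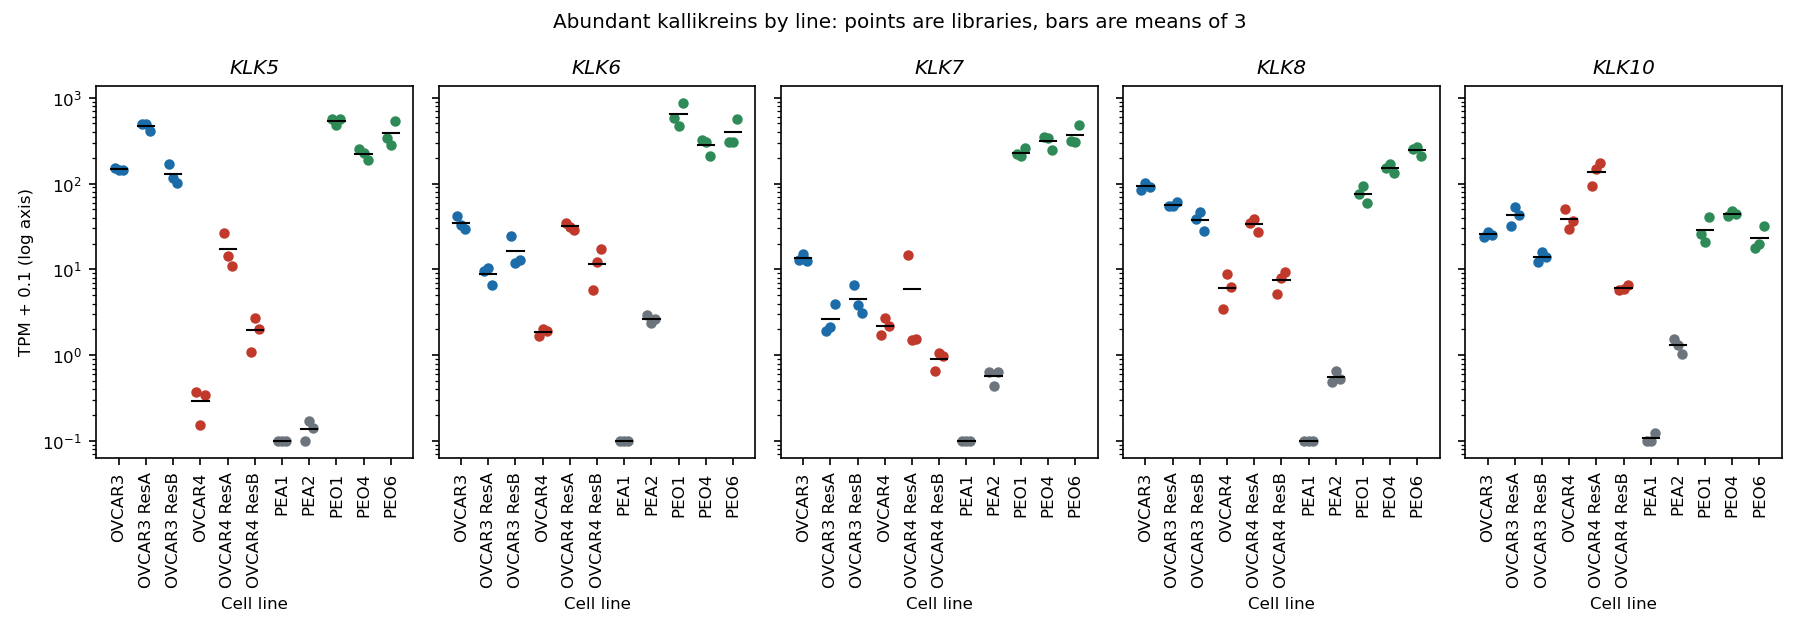
TPM + 0.1 on a log axis for the 5 abundant genes in each line. Points are single libraries, black bars are means of 3, and colours mark the 4 families. KLK7 in OVCAR4 ResA shows 1 library far above the other two, and KLK10 in OVCAR4 ResB lies below both other OVCAR4 lines.

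The contrast that singled out the cluster, OVCAR4 ResA against OVCAR4, is given as a description. KLK5 stood at 0.27, 0.056 and 0.24 TPM in OVCAR4 and at 26.2, 14.2 and 10.97 TPM in OVCAR4 ResA, a log2 fold change of 6.12 from counts of only 1 to 7 per OVCAR4 library. KLK6, a trypsin-like enzyme long studied in ascites, stood at 1.56, 1.93 and 1.80 TPM against 34.8, 31.2 and 29.0 TPM, a log2 fold change of 3.67. All libraries of OVCAR4 ResA lay above all of OVCAR4 for both genes. KLK8, known as neuropsin and able to cut the adhesion molecule L1, went from 3.36, 8.69 and 6.06 TPM to 34.6, 39.0 and 27.1 TPM (log2 fold change 2.14). KLK10, which was first described as a gene lost in breast cancer, went from 50.7, 29.4 and 37.0 TPM to 92.3, 147 and 172 TPM (1.29). Both were again without overlap. KLK11, at 1 count or fewer in OVCAR4, was at least 3.63-fold higher.

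KLK7 lay in the middle of this stretch and differed by library. It encodes the chymotrypsin-like enzyme of the outer skin. Its levels were 1.6004, 2.60 and 2.12 TPM in OVCAR4 and 14.8, 1.40 and 1.43 TPM in OVCAR4 ResA, so replicate 1 of OVCAR4 ResA alone lay above OVCAR4. The log2 fold change was −0.19 by counts and changed sign in TPM, and without replicate 1 it was −1.49. The same library had 9.23% mitochondrial ribosomal RNA against 2.02% and 2.09% in the other two, and the part of this in the result was not tested. KLK13 and KLK14 overlapped between the lines. By the threshold used for the other pairs, an adjusted p under 0.05, 5 of 10 members would be called, all higher, where 8.52% of all genes were (4.78% higher and 3.73% lower). Here and below, shares of all genes are over genes with a p-value in that comparison, 20664 to 21912 genes in the pairwise comparisons. Genes at 0 throughout a comparison are left out of the share, whereas KLK12 stays among the 10 members. In normalised counts 6 members were apart and higher, as were 15.5% of all genes, with 13.9% apart and lower. Nothing is read from these counts because the rule used this contrast.

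OVCAR4 ResB, derived from the same OVCAR4 line and set against the same OVCAR4 libraries, differed in both directions. KLK6 rose from 1.56, 1.93 and 1.80 TPM to 5.68, 12.1 and 17.1 TPM, a log2 fold change of 2.03 ± 0.43 (SE, DESeq2 adjusted p = 5.34e-05). KLK7 fell to 0.56, 0.95 and 0.87 TPM (−2.00 ± 0.57, DESeq2 adjusted p = 0.00427), and KLK10 fell to 5.65, 5.84 and 6.42 TPM (−3.22 ± 0.30, DESeq2 adjusted p = 9.23e-24). None of these 3 overlapped with OVCAR4. KLK5 stood at 1.004, 2.64 and 1.90 TPM, above every OVCAR4 library, with a log2 fold change of 2.78 that is given without a test because its OVCAR4 libraries are those of the choosing contrast. KLK8, at 5.03, 7.89 and 9.23 TPM, overlapped with OVCAR4 (log2 fold change −0.06 with a 95% interval from −1.19 to 1.07, and a positive sign in TPM). Counting KLK5, 4 of 10 members passed, 2 in each direction, where 13.8% of all genes passed (7.03% higher and 6.78% lower). In normalised counts 2 members were apart and higher and 2 apart and lower, against 17.7% and 16.9% of all genes. The fall of KLK10 held without any 1 replicate (largest DESeq2 adjusted p 4.60e-07). That of KLK7 was lost without replicate 2 (DESeq2 adjusted p = 0.410) and without replicate 3 (0.383), and the rise of KLK6 was lost without replicate 3 (0.203).

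The OVCAR4 derivatives can also be set side by side. From OVCAR4 ResA to OVCAR4 ResB the log2 difference was −3.19 for KLK5, −1.62 for KLK6, −1.90 for KLK7, −2.18 for KLK8 and −4.51 for KLK10, all downward. Without replicate 1 the value for KLK7 was −0.72. These values are descriptive, since they use the OVCAR4 ResA libraries, and 7 of 10 members were past the threshold, all lower, where 24.7% of all genes were (12.2% higher and 12.5% lower). The libraries of 6 members were apart and lower, where 11.6% of all genes were, with 10.7% apart and higher.

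OVCAR3 ResA showed a split within the cluster. KLK5 rose while its immediate neighbours KLK6, KLK7 and KLK8 fell. KLK5 went from 153, 144 and 143 TPM in OVCAR3 to 491, 492 and 406 TPM, 2.88-fold higher (log2 fold change 1.52 ± 0.10, DESeq2 adjusted p = 4.67e-49). KLK6 went from 41.7, 32.8 and 29.6 TPM to 9.59, 10.4 and 6.43 TPM, 4.36-fold lower (−2.12 ± 0.16, DESeq2 adjusted p = 2.06e-36). Both sets of libraries were fully apart. KLK7 went from 12.7, 14.96 and 12.4 TPM to 1.84, 2.05 and 3.82 TPM (−2.58 ± 0.25, DESeq2 adjusted p = 7.64e-23). KLK8 went from 85.0, 101 and 91.4 TPM to 55.2, 54.7 and 60.3 TPM (−0.96 ± 0.15, DESeq2 adjusted p = 5.87e-10). Neither gene overlapped between the lines.

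KLK10 and KLK11, farther along, also went opposite ways in OVCAR3 ResA. KLK10 rose from 23.9, 27.4 and 25.0 TPM to 31.7, 53.7 and 42.5 TPM (0.57 ± 0.13, DESeq2 adjusted p = 2.64e-05), without overlap in TPM but with overlap in normalised counts. That call was lost without the replicate block (DESeq2 adjusted p = 0.0599). KLK11 fell to 1 count per library, at least 3.49-fold lower (DESeq2 adjusted p = 0.0360), and was no longer called without any of the 3 replicates (no adjusted p without replicate 1, 0.191 without replicate 2 and 0.149 without replicate 3). In all, 6 of 10 members passed, 2 higher and 4 lower, in a comparison where 37.2% of all genes passed (18.2% higher and 19.0% lower). In normalised counts 1 member was apart and higher and 5 apart and lower, against 17.5% and 19.3% of all genes.

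In OVCAR3 ResB KLK6, KLK7, KLK8 and KLK10 were lower and KLK5 was not called. KLK6 was at 24.1, 11.7 and 12.9 TPM (−1.26 ± 0.36, DESeq2 adjusted p = 0.00970), KLK7 at 6.50, 3.72 and 2.98 TPM (−1.79 ± 0.43, 0.000788), KLK8 at 38.2, 46.4 and 28.1 TPM (−1.47 ± 0.38, 0.00222) and KLK10 at 12.2, 15.8 and 14.0 TPM (−0.98 ± 0.34, 0.0489). Each of the 4 genes lay below all OVCAR3 libraries. KLK5, at 167, 116 and 102 TPM, overlapped with OVCAR3, with a log2 fold change of −0.31 and a 95% interval from −0.99 to 0.36. In this comparison 5.78% of all genes passed (3.09% higher and 2.69% lower), against these 4 of 10 members. In normalised counts 5 members, KLK11 among them, were apart and lower, against 11.6% of all genes, with 10.5% apart and higher. The calls leaned on single libraries. Without replicate 2 none of them remained (DESeq2 adjusted p from 0.0677 to 0.379), and without replicate 1 only KLK7 did (0.00476, the others from 0.0602 to 0.367).

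OVCAR3 ResB differed from OVCAR3 ResA in KLK5 and KLK10. KLK5 was 3.59-fold lower (−1.84 ± 0.34, DESeq2 adjusted p = 2.23e-06) and KLK10 was 2.96-fold lower (−1.56 ± 0.35, DESeq2 adjusted p = 0.000140), both with separate libraries and both held without any 1 replicate. KLK6, KLK7 and KLK8 were not called (95% intervals from 0.090 to 1.65, −0.30 to 1.95 and −1.34 to 0.30), although KLK6 and KLK7 passed when replicate 3 was left out (DESeq2 adjusted p = 0.0469 and 0.0206). Here 2 of 10 members passed, both lower, where 10.2% of all genes did (5.63% higher and 4.55% lower). The libraries of 3 members were apart and lower, where 14.7% of all genes were apart in either direction taken singly.

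The PEO lines, with the highest levels, showed another split, between KLK6 and KLK7. In PEO4, KLK5 fell from 561, 483 and 567 TPM in PEO1 to 249.8, 229 and 187 TPM (−1.27 ± 0.16, DESeq2 adjusted p = 5.70e-14). KLK6 fell from 583, 463 and 868.2 TPM to 319.7, 301 and 211 TPM (−1.14 ± 0.21, DESeq2 adjusted p = 4.86e-07). The libraries of PEO4 and PEO1 were apart for both. KLK8 rose from 74.4, 92.7 and 58.7 TPM to 151, 171 and 131 TPM (1.09 ± 0.20, DESeq2 adjusted p = 2.79e-07), again apart. KLK7 rose from 219, 209.5 and 258 TPM to 350.2, 339 and 246 TPM (0.46 ± 0.17, DESeq2 adjusted p = 0.0251), with overlap in TPM, and KLK10 rose from 25.8, 20.8 and 40.5 TPM to 41.7, 47.3 and 43.7 TPM (0.69 ± 0.19, DESeq2 adjusted p = 0.00135). Both of these smaller rises were lost without replicate 1 (0.464 and 0.110) and without replicate 2 (0.201 and 0.121). Of the 10 members 5 passed, 3 higher and 2 lower, where 27.6% of all genes did (13.7% higher and 13.9% lower). In normalised counts 4 members were apart and higher and 2 apart and lower, against 19.2% and 20.0% of all genes.

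PEO6, set against the same PEO1 libraries, had KLK8 at 251, 266 and 211 TPM, 3.42-fold higher (1.77 ± 0.24, DESeq2 adjusted p = 6.51e-12), above every PEO1 library. KLK7 was at 311, 307 and 474 TPM (0.62 ± 0.22, DESeq2 adjusted p = 0.0125) and KLK11 at 5.41, 4.05 and 6.55 TPM against 2.03, 1.39 and 1.43 TPM (1.58 ± 0.48, DESeq2 adjusted p = 0.00383). KLK6, at 304, 308 and 569 TPM, was lower (−0.73 ± 0.20, DESeq2 adjusted p = 0.00155), and so was KLK5 at 342, 280.0 and 539.7 TPM (−0.57 ± 0.23, DESeq2 adjusted p = 0.0377). For KLK5 and KLK6 the third PEO6 library reached into the range of PEO1 in TPM. KLK10 was not called (95% interval from −0.78 to 0.090). These were 5 of 10 members, 3 higher and 2 lower, where 32.0% of all genes passed (16.3% higher and 15.6% lower). In normalised counts 3 members were apart in each direction, against 22.9% of all genes higher and 20.6% lower.

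KLK8 held in PEO6 without any 1 replicate (largest DESeq2 adjusted p 3.17e-06). KLK5 was lost without replicate 1 (0.127), without replicate 2 (0.434) and without the replicate block (0.0788). KLK6 was lost without replicate 2 (0.0594), KLK7 without replicate 1 (0.0983) or replicate 3 (0.150), and KLK11 without any of the 3 (0.0664, 0.0868 and 0.164). PEO6 and PEO4 themselves differed by the test in KLK10, which was lower in PEO6 (−1.03 ± 0.29, DESeq2 adjusted p = 0.00439) and was lost without replicate 1 (0.0974) or replicate 2 (0.388). That was 1 of 10 members where 14.0% of all genes passed (7.61% higher and 6.43% lower). The libraries of 4 members were apart and higher and of 1 apart and lower, against 18.4% and 16.6% of all genes.

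In the PEA pair all movement was at a low level. PEA1 had 0 counts of KLK5, KLK6, KLK7 and KLK8 in every library and 1 count of KLK10 in 1 library. PEA2 had 2.84, 2.25 and 2.55 TPM of KLK6, at least 22.3-fold higher (DESeq2 adjusted p = 1.46e-09), and 1.46, 1.23 and 0.95 TPM of KLK10, at least 22.4-fold higher (DESeq2 adjusted p = 8.48e-08). KLK7 was at 0.53, 0.34 and 0.53 TPM, at least 5.41-fold higher (DESeq2 adjusted p = 0.000463), and KLK8 at 0.39, 0.56 and 0.43 TPM, at least 2.18-fold higher (DESeq2 adjusted p = 0.0416). The libraries did not overlap for any of these genes, whereas KLK5 stayed at 2 counts or fewer in both lines. So 4 of 10 members passed, all higher, where 38.1% of all genes did (18.8% higher and 19.3% lower). The same 4 were apart and higher, against 25.5% of all genes, with 26.7% apart and lower. KLK7 was lost without replicate 1 (0.0849), and KLK8 had no adjusted p once any replicate was left out.

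Epithelial markers moved with the kallikreins in this pair. Of the 6 serous carcinoma markers 4 rose in PEA2 and none was at 0, and their summed level went from 205 to 233 TPM in the PEA1 libraries to 2474 to 2782 TPM in PEA2. The 8 markers of leukocytes, endothelium and fibroblasts summed to 66.3 to 106 TPM in PEA1, mainly COL1A1 at 88.4 TPM, and to 6.75 to 8.09 TPM in PEA2, with 3 of the 8 at 0 in either line. By the test 3 of the 8 were higher in PEA2 and 1 was lower. The part of these differences in the kallikrein result was not tested. In bulk RNA, fewer cells of a type and less RNA per cell cannot be told apart.

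Whether neighbours moved together depended on the couple. Leaving out OVCAR4 ResA, 6 resistant-sensitive pairs remain, in which pairs of one family share their sensitive libraries. KLK7 and KLK8 were both called in 5 of these and had the same direction in all 5. Only in OVCAR3 ResA did both of these calls hold without any 1 replicate. In the remaining pair, OVCAR4 ResB, KLK7 fell and KLK8 was not called (log2 fold change −0.06, with a positive sign in TPM). KLK6 and KLK7 were both called in all 6 pairs, with the same direction in 3 and opposite directions in 3. In the opposite cases, OVCAR4 ResB, PEO4 and PEO6, the KLK7 call was lost when single replicates were left out, although its sign stayed. Cases with the same direction were fragile too. In OVCAR3 ResB both calls were lost without replicate 2 (DESeq2 adjusted p = 0.379 for KLK6 and 0.142 for KLK7). In PEA2 the KLK7 call was lost without replicate 1 (0.0849). KLK5 and KLK6 were both called in 3 of the 5 pairs in which KLK5 was tested. They had the same direction in 2 and opposite directions in 1, which was OVCAR3 ResA. In PEO6, where both were lower, the KLK5 call was lost without replicate 1 or replicate 2. KLK10 and KLK11 were both called once, in opposite directions. Over all neighbouring couples the directions were the same 10 times and opposite 5 times. Both kinds include calls that were lost when single replicates were left out. Because KLK9, which lies between KLK8 and KLK10, was never called, those genes have no called neighbour on that side. The same holds for KLK11 and KLK13 on the side of KLK12.

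**Figure D4:**
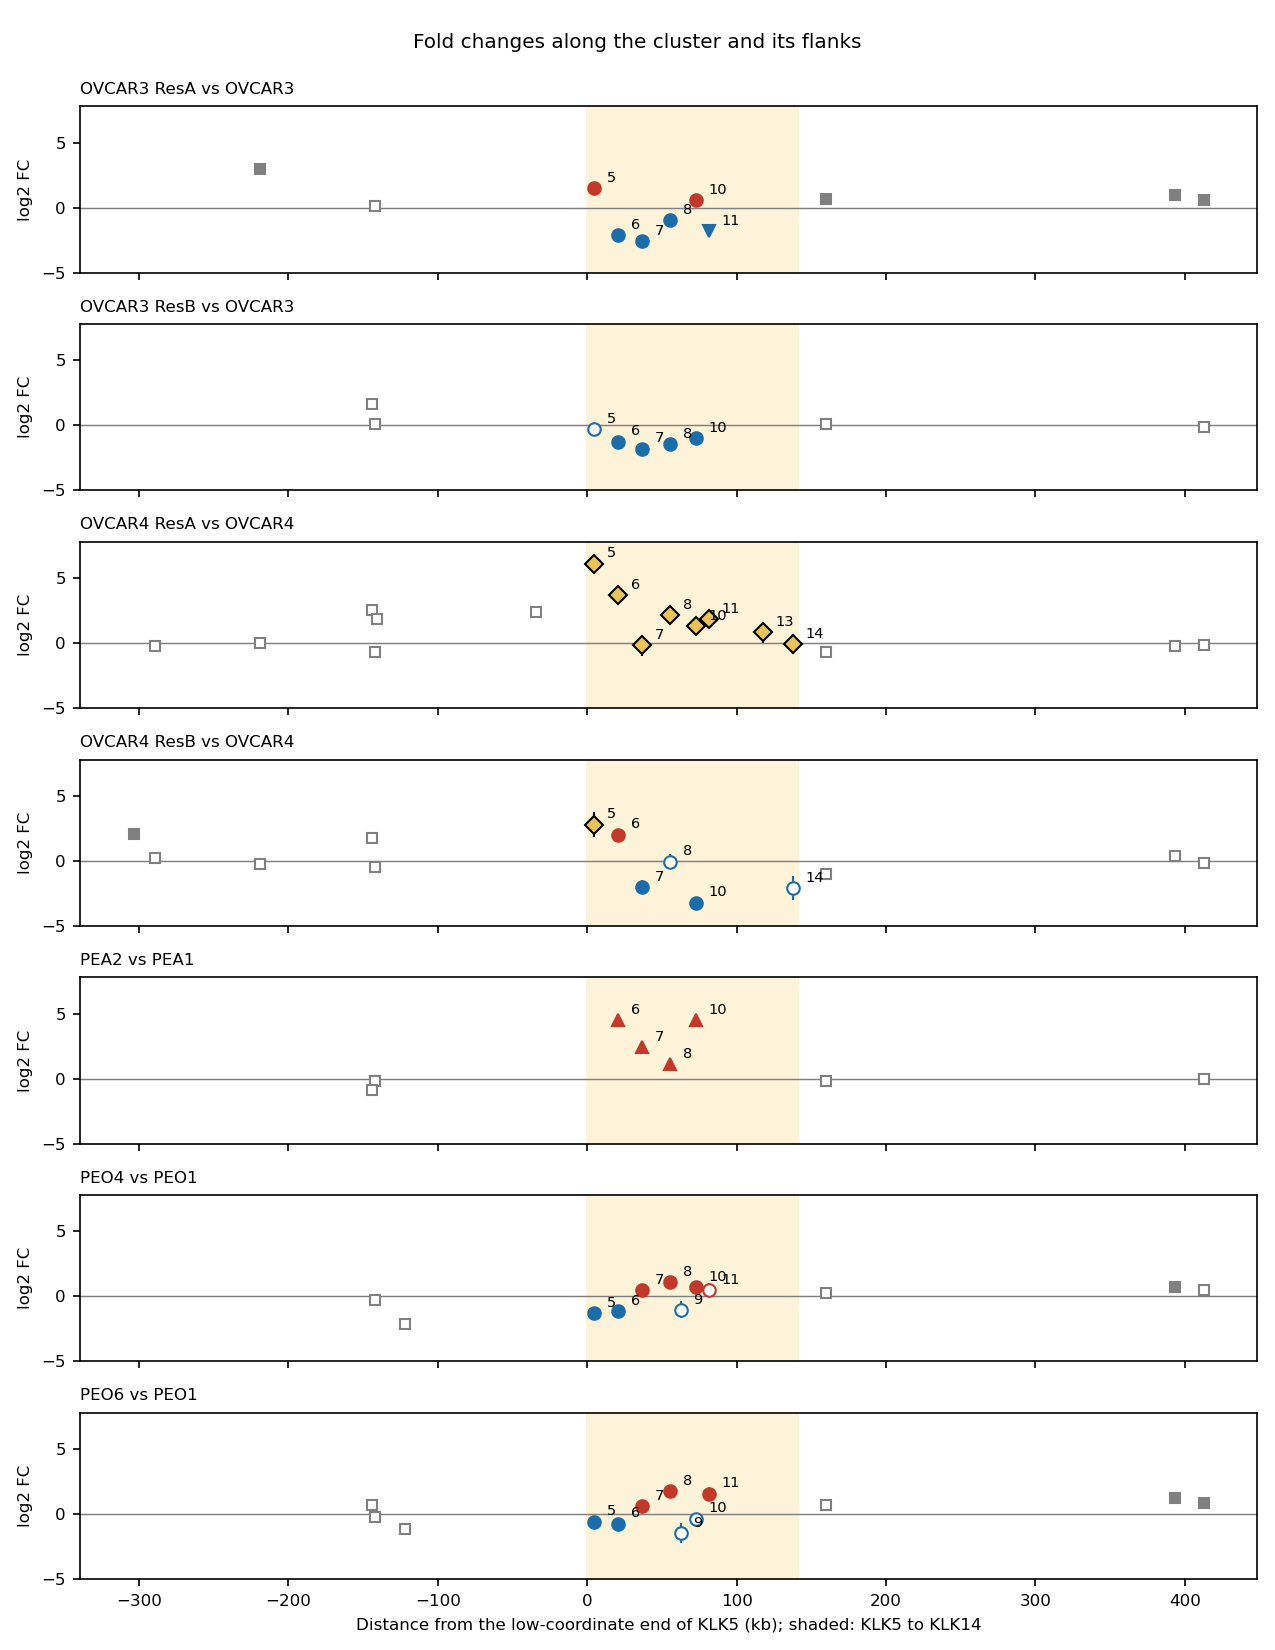
log2 fold change (FC) of each resistant line against its sensitive line, by distance along the chromosome in kb. Circles are kallikreins (numbered) with SE bars, triangles are lower bounds where 1 line was at the floor, filled marks passed DESeq2, diamonds are values given without a test, and grey squares are flanking genes with at least 1 TPM. The sign turns between KLK5 and KLK6 in OVCAR3 ResA and between KLK6 and KLK7 in OVCAR4 ResB, PEO4 and PEO6. In OVCAR3 ResB, OVCAR4 ResB, PEA2, PEO4 and PEO6 the call of KLK7 was lost when single replicates were left out.

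Leaving out OVCAR4 ResA and KLK5 in OVCAR4 ResB, members were called higher 13 times and lower 14 times among 59 combinations of gene and pair. In these 6 pairs between 5.78% and 38.1% of all genes were called. KLK9, KLK12, KLK13 and KLK14 were called by DESeq2 in none of the 7 pairs. In the 6 pairs without OVCAR4 ResA, 2 of their 24 combinations had an unadjusted p under 0.05, edgeR called 2 and limma on log2(TPM + 1) called 1. The median log2 fold change of the members above the floor was −0.96 in OVCAR3 ResA (9 members), −1.12 in OVCAR3 ResB (8), 2.14 in OVCAR4 ResA (9), −0.65 in OVCAR4 ResB (7), 6.44 in PEA2 (5), 0.46 in PEO4 (7) and 0.62 in PEO6 (9). With floor genes set to their bounds it was 1.29 in OVCAR4 ResA, 2.44 in PEA2 and 0 in PEO6, where it thus lost its sign, and was unchanged in the other 4. The median over all genes lay between −0.05 and 0.11 in these comparisons.

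Taking each line as 1 unit, no member was called between resistant and sensitive lines. Over the 8 lines outside the OVCAR4 family, with family as a term, the resistant-minus-sensitive log2 difference was 0.29 ± 0.74 for KLK5, −0.33 ± 1.197 for KLK6, 0.14 ± 1.06 for KLK7, 0.84 ± 0.87 for KLK8 and 1.08 ± 1.05 for KLK10, all with DESeq2 adjusted p = 0.999986. By DESeq2 0 of 10 members passed, 0 had an unadjusted p under 0.05 and edgeR called 0, where 0.317% of all genes passed (0.0989% higher and 0.218% lower). A likelihood-ratio test of whether the effect differed between the 5 pairs of these lines called 7 of 10 members, where 54.4% of all genes were called. Among them KLK6 had a DESeq2 adjusted p of 2.88e-38 and KLK10 one of 9.38e-34.

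Genes beside the cluster were counted in the same pairs. RefSeq places 51 genes other than the members within 300 kb on either side, of which 30 were measured, 6 of them the other tissue kallikreins. The other tissue kallikreins KLK1, KLK2, KLK3, KLK4, KLK15 and the pseudogene KLKP1 were called by DESeq2 in 0 of 42 combinations, with 3 at an unadjusted p under 0.05, 1 called by edgeR and 2 by limma. Between 5.78% and 38.1% of all genes were called in these pairs. However, 4 to 6 of these 6 kallikreins had no adjusted p in a given pair, and KLK2 and KLKP1 were at 0 throughout. Most of the 42 combinations could therefore not be called. Of the 24 remaining flanking genes, DESeq2 called 0 in OVCAR3 ResB (0 at an unadjusted p under 0.05) and 0 in OVCAR4 ResA (1 at an unadjusted p under 0.05), and edgeR and limma called 0 in both. Here 1 was called in OVCAR4 ResB and in PEO4, and 2 were called in PEA2 and in PEO6. In OVCAR3 ResA 6 of the 24 were higher and 0 lower, where 18.2% of all genes were higher and 19.0% lower. The 24 include genes at 0 in both lines, which these shares leave out, so the proportions are not like for like. They included CLEC11A, a secreted growth factor, at 2.94 ± 0.89 against 0.34 ± 0.16 TPM (DESeq2 adjusted p = 8.03e-07) and ETFB, a mitochondrial electron carrier, at 68.6 against 40.4 TPM (DESeq2 adjusted p = 0.000150). Many flanking genes were near 0, and 13 to 19 of the 24 had no adjusted p in a given pair.

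The partners of kallikreins were read from lists of 6 to 14 genes, each given over the 7 pairs. In these pairs 5.78% to 38.1% of all genes were called, 3.09% to 18.8% higher and 2.69% to 19.3% lower. The list counts keep combinations without an adjusted p in their totals, so they are not like for like with these shares. Of the 10 inhibitors, 8 combinations rose and 7 fell among 70, with 5 of the rises and 1 of the falls in PEA2. In a given pair 3 to 6 of the 10 had no adjusted p. SERPINA5, the protein C inhibitor, rose in both OVCAR4 derivatives and in PEA2 (24.1 ± 3.97 against 0.33 ± 0.11 TPM) and fell in OVCAR3 ResA. SPINT1, an inhibitor of matriptase, went from 0.48 ± 0.20 TPM in PEA1 to 141.9 ± 8.996 TPM in PEA2 (DESeq2 adjusted p = 7.09e-148) and fell in OVCAR4 ResB, PEO4 and PEO6.

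Of the 6 activating proteases, 9 combinations rose and 4 fell among 42, with 4 of the rises and 0 of the falls in PEA2. PLAU, the urokinase gene, was called in 6 pairs. It rose in OVCAR3 ResA (145 ± 24.1 against 24.3 ± 3.91 TPM), OVCAR3 ResB, OVCAR4 ResB and PEA2, and fell in PEO4 and PEO6 (26.9 ± 8.34 against 144.7 ± 58.7 TPM). ST14, which encodes matriptase, rose in PEA2 from 0.24 ± 0.12 to 90.4 ± 10.6 TPM and in OVCAR3 ResA.

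Among the 10 substrates and receptors, 18 combinations rose and 15 fell of 70, with 7 of the rises and 0 of the falls in PEA2. FN1, fibronectin, rose in PEA2 and fell in 5 pairs. L1CAM, cut by KLK8, rose in OVCAR3 ResA, OVCAR3 ResB, OVCAR4 ResA and PEA2. It fell in PEO4 to 0.57 ± 0.11 TPM and in PEO6 to 0.73 ± 0.51 TPM from 18.7 ± 4.63 TPM. KLK8 RNA rose in PEO4 and PEO6, where L1CAM fell, and in PEA2, where L1CAM rose. KLK8 fell in OVCAR3 ResA and OVCAR3 ResB, where L1CAM rose, and both genes were higher in OVCAR4 ResA. These are RNA levels, and cutting of the L1CAM protein was not tested.

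Steroid and nuclear receptors, which regulate kallikreins in other tissues, gave 11 rises and 9 falls among 49 combinations. VDR, the vitamin D receptor, rose in OVCAR3 ResB and PEA2 (18.4 ± 4.02 against 4.36 ± 0.34 TPM) and fell in OVCAR3 ResA, PEO4 and PEO6. NR3C1, the glucocorticoid receptor, rose in OVCAR4 ResB, PEA2 and PEO4 (102 ± 21.1 against 53.1 ± 5.17 TPM) and fell in PEO6. The 14 genes of the cornified envelope and of related skin proteins gave 9 rises and 9 falls among 98. In a given pair 5 to 10 of the 14 had no adjusted p. FLG, filaggrin, fell in 4 pairs, with 0.91 ± 0.50 TPM in OVCAR3 ResA against 71.1 ± 21.5 TPM in OVCAR3.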

How the data were processed

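Libraries were made with an mRNA kit (KAPA mRNA HyperPrep); BCL conversion used DRAGEN and quantification the nf-core/rnaseq pipeline. Gene counts are the authors' salmon estimated counts, deposited per library against GRCh38 and not normalised, and were rounded to whole numbers here. TPM values are those the authors deposited, scaled per library and per gene length. Whether strand was used, and whether the 3 replicates were separate cultures, is not given in the sources used here, so p-values may measure technical spread only.

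Each pair was fitted with DESeq2 1.42.0 (replicate plus line, the study's design), with Benjamini-Hochberg adjustment over all tested genes and a threshold of 0.05. Resistance over 8 lines and the difference between pairs were fitted on 24 libraries and all genes. Alternatives were edgeR 4.0.16 quasi-likelihood, TMM factors, a mean count of at least 10, limma 3.58.1 on log2(TPM + 1) and log2(TPM + 0.1), all 33 libraries in one fit, no replicate block, and each replicate left out. The tests were checked on counts simulated from PEO4 and PEO1 with 200 changed genes. DESeq2 recovered 96% of these, edgeR 94% and limma 75.5%. The changed genes were well above the floor, so calls near it were not covered. Same-numbered replicates deviated together (3 correlations over 0.1) in 2 of 10 comparisons. All 3 correlations were negative for both OVCAR4 derivatives against OVCAR4 (−0.61 to −0.13) and for PEO6 against PEO4 (−0.50 to −0.21). A line with 3 counts or fewer in every library was at the floor, and folds against it are bounds that cover counting error only. Positions and promoter windows are RefSeq GRCh38.p14, which lists start windows for 9 of 10 members. Members and lists were chosen with earlier results of these data known. From each list at most 4 genes were eligible for naming, those called in most pairs, with ties broken by mean TPM. Values of some list genes are not reported here.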

Additional observations from a re-analysis of the deposited data

Results flagged for a closer look

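Under the same contrast, resistant against sensitive, the effect differed between the pairs outside the OVCAR4 family for 7 members, by the likelihood-ratio test over 24 libraries. The DESeq2 adjusted p was 1.34e-17 for KLK5, 2.88e-38 for KLK6, 1.60e-20 for KLK7, 5.82e-19 for KLK8, 9.38e-34 for KLK10, 5.07e-09 for KLK11 and 0.0490 for KLK14. At the same threshold 54.4% of all genes differed, so the count is not read as particular to the members. Every resistant line is 1 derivation, and these p-values rest on the spread between libraries of a line. For KLK9 (0.607) and KLK13 (0.120) the difference was not called. Pairs of one family share their sensitive libraries.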

How the results depend on the processing

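Counts of members called changed as follows. With limma on log2(TPM + 1) and on log2(TPM + 0.1) the counts were 0 and 0 in OVCAR3 ResB (from 4), 0 and 2 in OVCAR4 ResA (from 5), 0 and 1 in OVCAR4 ResB (from 4), and 2 and 2 in PEO4 (from 5). PEO6 gave 2 on log2(TPM + 0.1), from 5. OVCAR3 ResB against ResA gave 0 and 0 (from 2), PEO6 against PEO4 gave 0 and 0 (from 1), and OVCAR4 ResB against ResA gave 4 on log2(TPM + 0.1), from 7. With edgeR quasi-likelihood OVCAR4 ResA had 2. With a mean count of at least 10, PEA2 had 2 (from 4). With all 33 libraries in one fit PEO6 had 2 and PEO6 against PEO4 had 2. Without the replicate block, PEO6 against PEO4 had 4, and the other counts stayed within 1.5 times.

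Leaving out 1 replicate gave 0 to 4 calls in OVCAR3 ResB, 2 to 6 in OVCAR4 ResA, 1 to 5 in OVCAR4 ResB, 2 to 3 in PEA2, 3 to 5 in PEO4, 2 to 3 in PEO6, 2 to 4 in OVCAR3 ResB against ResA and 0 to 2 in PEO6 against PEO4.

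No called value changed direction. KLK7 in OVCAR4 ResA became 1.11 without the replicate block, 0.55 and 0.58 with limma at the larger and smaller pseudocount, 0.98 in the joint fit, and 0.96 and 0.78 without replicates 2 and 3 (−1.49 without replicate 1). KLK14 in OVCAR4 ResA became 0.0042, 0.22, 0.35, 0.13 under the same settings and, without 1 replicate, ranged from −0.54 to 0.43. KLK8 in OVCAR4 ResB became 0.29 and 0.34 with limma and ranged from −0.34 to 0.30 without 1 replicate. KLK5 in OVCAR3 ResB ranged from −0.53 to 0.0044, and KLK7 in PEO6 against PEO4 from −0.083 to 0.32, without 1 replicate. Over lines, KLK6 became 0.45 with the OVCAR4 family, and KLK7 became −0.0077 with edgeR and ranged from −0.035 to 0.21 without 1 replicate. Among single members 513 values kept direction and call, 106 lost their call and 12 gained one. The cause was not tested. Members near the floor are limited by depth.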

Other observations

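Over the 11 line means of log2(TPM + 1), and among 13179 genes, those whose pattern was most like KLK5 were ZBTB6 (Pearson's r 0.97), ZNF586 (0.96), UQCRH (0.96), NYNRIN (0.96) and LOC100289097 (0.95). The summed level of the 10 kallikreins was most like SCNN1A, a subunit of the epithelial sodium channel (0.98), TRIM29 (0.95), TMEM98 (0.95), VGLL1 (0.94) and DCTN3 (0.93). With 11 points that share families, these are descriptions only.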
